A study of Mus musculus with 6 samples.

Results

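At 519 genomic regions, listed peaks of C/EBPα and IRF8 swapped between control and interleukin-4 (IL-4)-treated mouse bone marrow-derived macrophages. ChIP-seq peak lists of C/EBPα, IRF8 and JUNB were merged wherever peaks overlapped by at least 1 bp, which gave 60856 regions, and a region was kept where C/EBPα had a peak in 1 condition only and IRF8 had a peak in the other condition only. At 315 regions the swap went from C/EBPα to IRF8 (a C/EBPα peak only in control cells, an IRF8 peak only after IL-4). At 204 regions the lists changed from IRF8 to C/EBPα. Members were thus chosen by the presence and absence of C/EBPα and IRF8 peaks, so these counts and the scores of both factors are descriptions and carry no test. The cells were wild-type macrophages of C57BL/6 mice aged 8 to 12 weeks, grown from bone marrow for 6 days in L929 supernatant, a source of M-CSF. They were left as control cells or treated with 20 ng/ml IL-4 for 1 hr, and every group received the same double crosslinking with DSG and formaldehyde. Each antibody and condition had 1 sample, so no value below has a replicate check, and the tests compare regions within these 6 lists and not the conditions. The number of animals or cultures behind a sample was not given in the sources used here.

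C/EBPα is a leucine zipper factor that pairs with its own family and sets up the enhancers of myeloid cells. IRF8 belongs to the interferon regulatory factors. It binds DNA weakly on its own and usually with a partner, most often PU.1 at joined ETS-IRF sites, and both factors are required for normal macrophage and dendritic cell development. JUNB is an AP-1 subunit that binds as a dimer with FOS, ATF or BATF proteins. IL-4 acts through STAT6, whose dimers recognise an inverted repeat of TTC and GAA, and the series asked how the 3 factors were bound before and soon after that signal.

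In control cells 24486 C/EBPα, 37525 IRF8 and 3940 JUNB peaks were listed, and after IL-4 24612, 42076 and 2325. The number of sequencing reads behind each list is unknown, and a peak that is missing from a list may be bound below the limit of the peak caller. Of the regions with a C/EBPα peak, 17.4% had it in control cells only and 17.9% after IL-4 only. For IRF8 these shares were 15.9% and 25.5%, and for JUNB 51.9% and 18.6%. Of the 18678 regions with a peak of both C/EBPα and IRF8, 1.69% went from C/EBPα to IRF8 and 1.09% from IRF8 to C/EBPα. Both factors kept their peaks at 10819 regions, both were gained at 751 and both were lost at 370, so exchange was the rarer pattern among regions where both factors changed. C/EBPα to IRF8 regions were not the more numerous ones under every setting: with the lists of each factor cut to equal length by score, the directions held 246 and 253 regions. The gained and the lost regions together (1121) are called same-direction regions below.

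Read from the side of 1 factor, a swap was an uncommon outcome. Of the 5114 regions with C/EBPα in control cells only, IRF8 had no peak at 54.4%, peaks in both conditions at 32.2%, a peak in control cells only at 7.24% and a peak after IL-4 only at 6.16%. Of the 5263 regions with C/EBPα after IL-4 only, the same states made up 50.4%, 31.5%, 3.88% and 14.3%. Where C/EBPα was lost, IRF8 was gained at 315 and lost at 370 regions, and where C/EBPα was gained, IRF8 was gained at 751 and lost at 204.

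**Figure D1:**
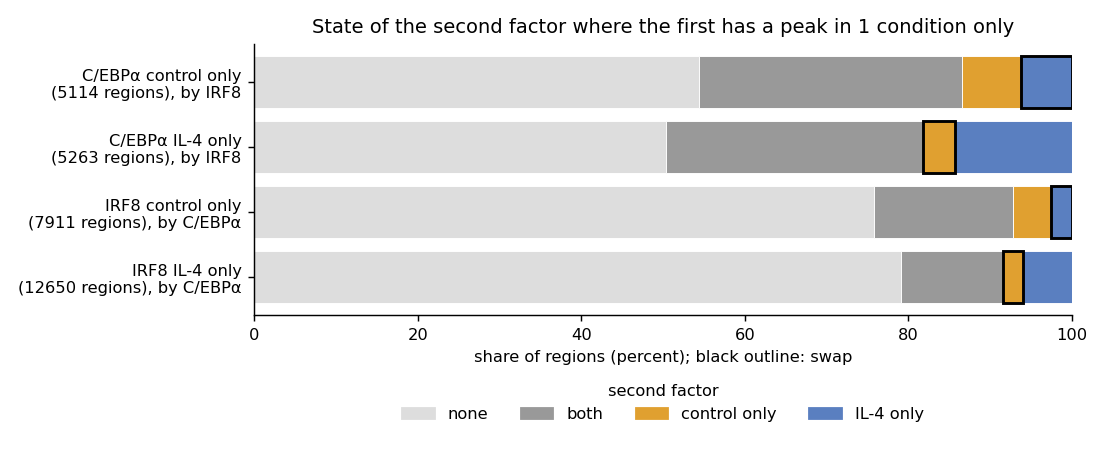
State of IRF8 where C/EBPα had a peak in 1 condition only, and the reverse, as stacked shares of regions in percent. Black outlines mark the swap regions, which are 6.16% of the regions with C/EBPα in control cells only and 3.88% of those with C/EBPα after IL-4 only.

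The leading regions are shown first because both of their exchanged peaks scored high for swap regions. Regions were ranked by the lower of their C/EBPα and IRF8 scores, a score being taken as the peak caller's −log10 significance. Over the complete lists the median score was 11.2 in both C/EBPα lists. In the IRF8 lists it was 10.3 in control cells and 9.61 after IL-4. The 4 highest of each direction outside UTRs are printed below as 200 bp around the centre of the merged region, 5′ to 3′ on the plus strand of mm10, read from the GRCm38 reference. Capitals mark the letters of any of the 7 motifs searched on both strands. These were C/EBP (TTGCNNAA), an ISRE-type IRF site (GAAANNGAA), an ETS-IRF composite (GGAANNGAA), a PU.1-type ETS site (AGGAAGT), AP-1 (TGANTCA), RUNX (TGTGGTT) and a STAT6-type site (TTC, then 4 bases, then GAA). An ETS site followed by GAA also counts as the composite. A match is a match of letters and not a binding site. From C/EBPα to IRF8:
Ptprr (chr10:116156831-116157030): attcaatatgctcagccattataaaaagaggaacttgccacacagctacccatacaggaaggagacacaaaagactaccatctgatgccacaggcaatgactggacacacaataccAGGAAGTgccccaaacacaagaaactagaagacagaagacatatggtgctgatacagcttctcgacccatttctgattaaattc
Wdr11 (chr7:129746770-129746969): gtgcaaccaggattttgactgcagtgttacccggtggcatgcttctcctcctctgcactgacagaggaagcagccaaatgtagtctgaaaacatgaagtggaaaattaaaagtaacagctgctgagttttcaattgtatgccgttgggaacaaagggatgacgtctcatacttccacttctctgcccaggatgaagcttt
Sh2d1a (chrX:42401978-42402177): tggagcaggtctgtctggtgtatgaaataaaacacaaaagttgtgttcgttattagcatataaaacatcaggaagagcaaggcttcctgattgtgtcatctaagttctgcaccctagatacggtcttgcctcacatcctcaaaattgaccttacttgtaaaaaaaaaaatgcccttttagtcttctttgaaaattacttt
Sla (chr15:66817058-66817257): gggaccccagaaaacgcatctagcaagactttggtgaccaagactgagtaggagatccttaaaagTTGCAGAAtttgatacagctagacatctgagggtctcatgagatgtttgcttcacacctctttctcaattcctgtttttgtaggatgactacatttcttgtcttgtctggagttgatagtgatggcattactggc
From IRF8 to C/EBPα:
Glcci1 (chr6:8537017-8537216): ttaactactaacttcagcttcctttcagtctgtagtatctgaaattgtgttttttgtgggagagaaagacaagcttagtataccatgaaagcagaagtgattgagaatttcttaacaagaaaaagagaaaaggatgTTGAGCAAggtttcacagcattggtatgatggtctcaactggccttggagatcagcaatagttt
1500015O10Rik (chr1:43589062-43589261): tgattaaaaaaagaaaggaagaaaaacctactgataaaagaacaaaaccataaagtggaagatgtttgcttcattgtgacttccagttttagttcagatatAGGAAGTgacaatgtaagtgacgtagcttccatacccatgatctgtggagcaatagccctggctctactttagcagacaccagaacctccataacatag
A630077J23Rik (chr4:43757332-43757531): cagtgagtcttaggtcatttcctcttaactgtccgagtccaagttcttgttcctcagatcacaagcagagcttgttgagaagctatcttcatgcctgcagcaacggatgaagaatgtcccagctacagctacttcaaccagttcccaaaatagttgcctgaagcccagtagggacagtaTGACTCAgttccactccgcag
Rabgef1 (chr5:130171509-130171708): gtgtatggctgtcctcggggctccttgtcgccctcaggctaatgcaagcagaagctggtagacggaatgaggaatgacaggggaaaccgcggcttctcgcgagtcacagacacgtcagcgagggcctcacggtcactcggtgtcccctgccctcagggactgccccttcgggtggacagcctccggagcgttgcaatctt

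In these 8 windows, 5 held a match, and each of the 5 held a single one. Sla and Glcci1, the top regions with C/EBP letters, carried them at position 66 and position 137 of the window. Ptprr and 1500015O10Rik had an ETS site at positions 117 and 102, and A630077J23Rik had an AP-1 site at position 180. The windows of Wdr11, Sh2d1a and Rabgef1 had none of the 7. No IRF-type letters stood in any of the 8.

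From C/EBPα to IRF8, the leading region lay in intron 1 of Ptprr, a receptor-type tyrosine phosphatase, within an LTR repeat, with a C/EBPα score of 11.51 in control cells and an IRF8 score of 11.19 after IL-4. An intergenic region 155053 bp from Wdr11 followed with 11.13 and 12.91. Near Sh2d1a, which encodes the lymphocyte adaptor SAP, the scores were 10.23 and 10.64. These 3, with the Sla region, were the only regions of this direction in which both scores reached 10. Sla, which encodes a Src-like adaptor that dampens receptor signalling, had scores of 10.01 and 11.73 at a site in intron 1, and the IL-4 list of C/EBPα had a peak 411 bp away and the control list of IRF8 a peak 452.5 bp away. The other 6 of the leading 10 were next to 1700112E06Rik, Ell (an elongation factor of RNA polymerase II), Wnt2b (a Wnt ligand), Myh9 (non-muscle myosin heavy chain), Lpin2 (a phosphatidate phosphatase) and Api5 (an inhibitor of apoptosis). Their C/EBPα scores ran from 8.71 to 10.76 and their IRF8 scores from 8.70 to 16.92, the highest being Ell. All 6 were intronic, and the Myh9 region alone among the 10 held JUNB, with scores of 6.15 in control cells and 7.55 after IL-4.

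From IRF8 to C/EBPα, the leading region was in intron 1 of Glcci1, a gene named for its induction by glucocorticoids, with an IRF8 score of 13.97 in control cells and a C/EBPα score of 12.03 after IL-4. An intergenic region near 1500015O10Rik had 11.89 and 11.11, and a non-coding exon of A630077J23Rik had 10.47 and 11.11. These 3 were the regions of this direction with both scores of at least 10. Next came the promoter of Rabgef1, an exchange factor for endosomal RAB GTPases, with 9.27 and 10.84 at a TSS distance of -211 bp, and a control C/EBPα peak lay 962.5 bp away. The promoter of Malat1, an abundant nuclear non-coding RNA, had 9.31 and 8.83. Gm14005, Ccdc94, Gm525 and Slc35a5 followed with IRF8 scores of 7.88 to 11.28 and C/EBPα scores of 7.69 to 10.02. The remaining region of the 10 had a far stronger C/EBPα peak. In an intron of Ankrd55, chromosome 13, 112325059 to 112325440, C/EBPα had a score of 54.68 after IL-4, the 4th highest of all 5263 regions with C/EBPα after IL-4 only, while IRF8 had 7.69 in control cells. A control C/EBPα peak lay 1095.5 bp away, outside the merged region, measured between peak centres.

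Most swap regions were much weaker than these. From C/EBPα to IRF8, the C/EBPα scores ran from 1.91 to 21.7 with a median of 5.62, and the IRF8 scores from 2.0 to 19.1 with a median of 5.20. From IRF8 to C/EBPα, the IRF8 scores ran from 2.08 to 23.0 with a median of 5.71, and the C/EBPα scores from 1.92 to 54.7 with a median of 5.42. Peaks found in 1 condition only were weak in general, with medians of 5.62 and 5.90 for C/EBPα and 5.33 and 4.99 for IRF8 in control cells and after IL-4. At regions with both factors in both conditions, by contrast, the 4 median scores were between 18.2 and 20.0. Both scores were at least 5 at 97 of 315 regions (30.8%) and at 77 of 204 (37.7%). C/EBPα had the higher score at 160 of 315 and at 94 of 204, so neither factor was the stronger one throughout.

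**Figure D2:**
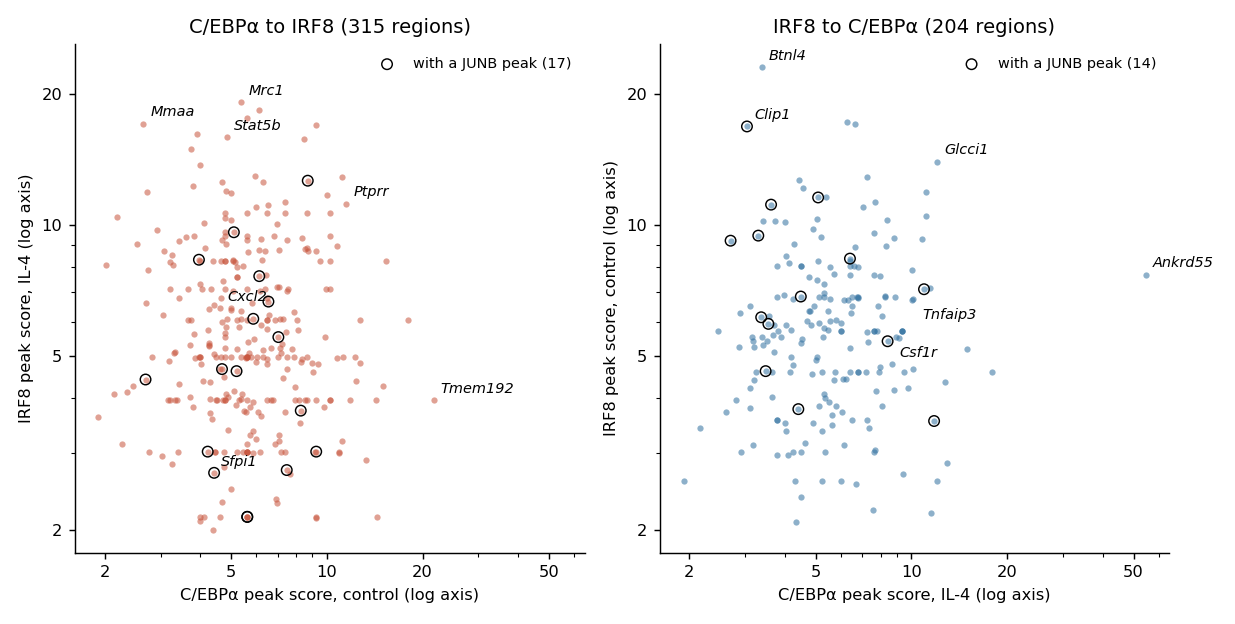
C/EBPα peak score against IRF8 peak score (taken as −log10 significance, log axes) for each swap region, 315 on the left and 204 on the right, with circles around regions that held a JUNB peak. Most points lie below 10 on both axes, and Ankrd55 stands alone with a C/EBPα score of 54.68.

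How the paired peaks lay was partly set by the merge rule. The C/EBPα and IRF8 peaks overlapped each other directly at all 519 regions. At the 297 of 315 and 190 of 204 regions with exactly 2 peaks, the rule fixed this in advance. At some of the others, merging could also have joined them through a JUNB peak. Their centres were a median of 51.0 bp apart from C/EBPα to IRF8 (quartiles 26.2 and 104) and 45.2 bp apart from IRF8 to C/EBPα (quartiles 20.4 and 94.1). The overlap covered a median of 86.3% and 86.5% of the shorter peak. Regions just inside the rule included Arid5b with an overlap of 6 bp and Sirt4 with 12 bp. Just outside it, pairs of peaks separated by 2 bp at Atp10d and by 3 bp at Cd37 were not counted, and 26 and 12 such pairs lay at most 100 bp apart.

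Some members had the same factor close by in the other condition. A peak of the same factor from the other condition lay within 1 kb, for C/EBPα or IRF8, at 48 of 315 regions (15.2%) and at 46 of 204 (22.5%). For C/EBPα alone it was 24 (7.62%) and 17 (8.33%), close to the 8.21% and 8.15% of all C/EBPα peaks found in 1 condition only. For IRF8 alone it was 36 (11.4%) and 33 (16.2%), against 11.3% of all IRF8 peaks found after IL-4 only and 14.8% of those found in control cells only. The median distance to that nearest peak was 11367 and 9368.8 bp for C/EBPα and 6994.5 and 5337.5 bp for IRF8. Named regions with an IRF8 peak of the other condition within 1 kb included Sh2d1a (787 bp), Rxra (270.5 bp), Jun (662.5 bp) and Rtn4 (885 bp). Agpat4 had such a C/EBPα peak 428.5 bp away.

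Swap regions lay nearer to genes than regions where both factors changed the same way. A TSS was within 10 kb of 42.4% of swap regions (220 of 519) and of 30.1% of same-direction regions (337 of 1121), a difference of 12.3 percentage points (95% interval 7.32 to 17.4, Fisher's exact test, two-sided, adjusted p = 1.02e-05 over 15 features). Promoters, as HOMER assigns them around the TSS, made up 12.3% against 7.40% (exact adjusted p = 0.00574), and intergenic sites 33.3% against 44.6% (exact adjusted p = 7.76e-05). Over all merged regions 35.5% had a TSS within 10 kb, 9.01% were promoters and 41.4% were intergenic. Promoters were 14.5% of all regions with IRF8 after IL-4 only and 8.17% of those with IRF8 in control cells only. For C/EBPα these shares were 9.27% and 7.06%, so a high promoter share was not particular to swap regions. The difference in distance was also found against each class alone, in tests chosen after the shares were seen, with 225 of 751 both-gained regions within 10 kb (exact adjusted p = 3.47e-05) and 112 of 370 both-lost regions (exact adjusted p = 0.00377). With only peaks of scores of at least 5, none of these promoter and TSS calls passed adjustment. The TSS difference was then 6.93 points (exact adjusted p = 0.0568), with exact adjusted p = 0.123 against both-gained and 0.192 against both-lost regions, and the promoter difference was 3.28 points (exact adjusted p = 0.113). The intergenic difference still passed, at −8.69 points (exact adjusted p = 0.0284). Promoters made up 15.1% of the 345 swap regions with a lower score under 5 and 6.90% of the 174 at 5 or more. In both-gained regions the same shares were 12.5% and 4.42%, but in both-lost regions they were 6.02% and 5.84%. The part of peak strength in the difference was not tested beyond these values.

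**Figure D3:**
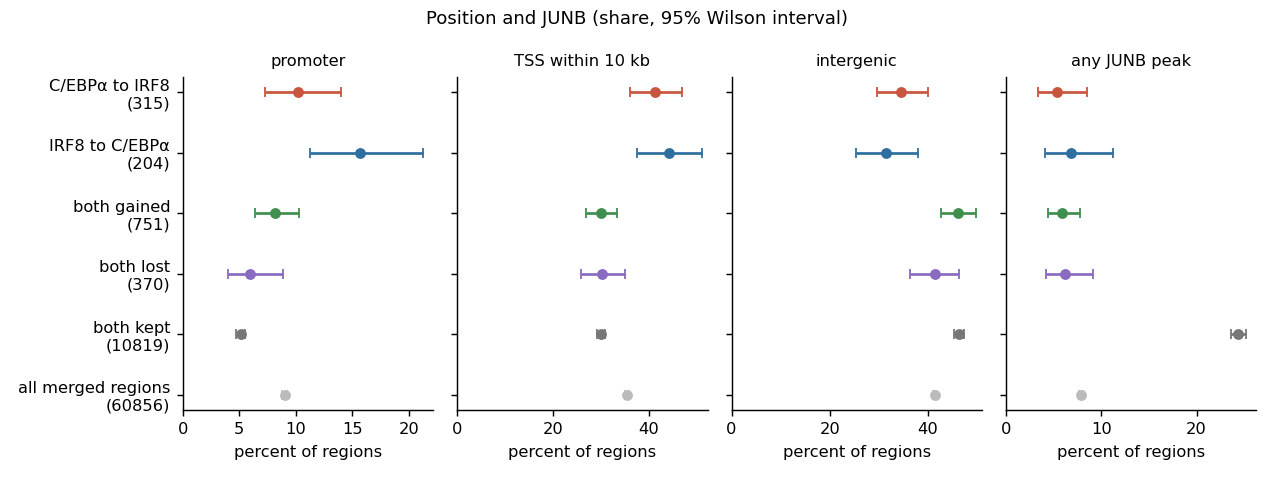
Share of regions in percent, with 95% Wilson intervals, that were promoters, had a TSS within 10 kb, were intergenic or held a JUNB peak, by class of region with the number of regions in brackets. Both swap directions lie to the right of the gained and lost classes for TSS within 10 kb (41.3% and 44.1% against at most 30.3%), while JUNB was found at 24.4% of both-kept regions and at 5.40% to 6.86% of the 4 changing classes.

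The 2 directions of swap had similar positions. Promoters were 10.2% of the C/EBPα to IRF8 regions (32 of 315) and 15.7% of the IRF8 to C/EBPα regions (32 of 204), a difference of −5.53 points (95% interval −11.8 to 0.269) that did not pass adjustment (exact p = 0.0752, adjusted p = 0.630). Introns held 49.8% and 47.5%. Repeats, by HOMER's detailed annotation, held 15.6% and 21.1% (exact adjusted p = 0.630), with LTR elements at 7.30% and 10.3%. The median distance to a TSS was 15449 and 13569 bp, shorter than the 23319 bp of both-gained and the 25619.5 bp of both-lost regions. Of 15 features compared between the directions, none passed adjustment, and the intervals of the differences reached at most 12.6 points on either side, so differences up to that size lie within the intervals at this number of regions.

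**Figure D4:**
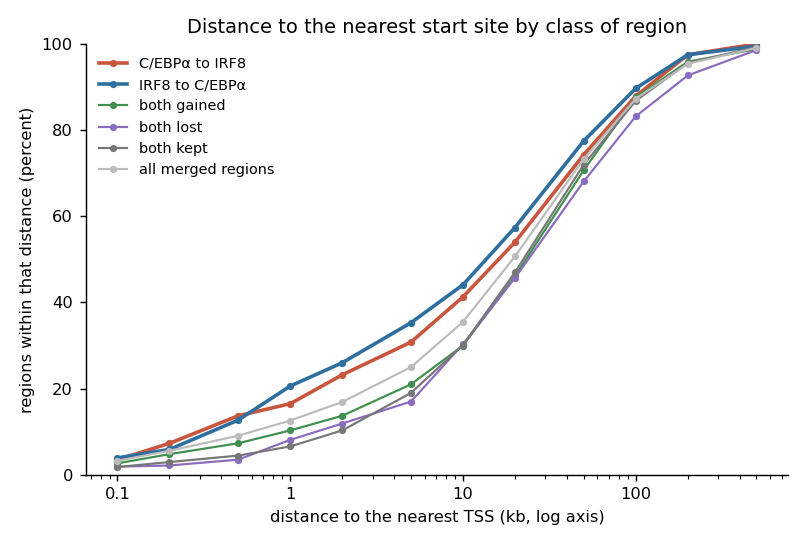
Cumulative share of regions in percent against distance to the nearest TSS in kb (log axis), by class of region. At 2 kb the swap curves stand at 23.2% and 26.0%, above 13.7% for both gained, 11.9% for both lost, 10.3% for both kept and 16.9% for all regions. By 100 kb all curves lie between 83.2% and 89.7%.

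JUNB was scarce at swap regions and did not separate the directions. It had a peak at 17 of 315 C/EBPα to IRF8 regions (5.40%, 95% Wilson interval 3.40 to 8.47) and at 14 of 204 IRF8 to C/EBPα regions (6.86%), a difference of −1.47 points (95% interval −6.23 to 2.65, exact p = 0.570, adjusted p = 0.977). Same-direction regions had 5.98%, all merged regions 7.90% and both-kept regions 24.4%. From C/EBPα to IRF8, JUNB was present in control cells only at 10 regions, in both conditions at 5 and after IL-4 only at 2. From IRF8 to C/EBPα these numbers were 10, 2 and 2. Loss of JUNB was thus the commonest state where JUNB was found at all in either direction, as it was over the whole JUNB lists, where 51.9% of regions had JUNB in control cells only. A JUNB peak in control cells was commoner at swap regions (5.20%) than at both-gained regions (2.53%, exact adjusted p = 0.0350, chosen after the shares were seen), but 4 of 6 other settings ended this call. The difference was 0.396 points with lists matched in length by score (exact adjusted p = 0.736) and 0.365 points at scores of at least 5 (exact adjusted p = 1.00). It was 2.68 points with 50% overlap (exact adjusted p = 0.0648) and 2.18 points with 200 bp peaks (exact adjusted p = 0.0971).

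From C/EBPα to IRF8, the strongest JUNB peaks lay in an intron of Htra3, which encodes a serine protease, next to Rassf8 and in an intron of Agpat4. At Htra3 JUNB scored 23.41 in control cells and 11.20 after IL-4, while C/EBPα had 6.13 and IRF8 7.63. Near Rassf8 JUNB had 19.01 and at Agpat4 13.35, both in control cells only, together with the C/EBPα peak. In the opposite direction the highest were Aim1 with 5.34 and 14.12, Rtn4 (a reticulon of the endoplasmic reticulum) with 7.31 and 8.90, and Por (the cytochrome P450 reductase) with 8.86 in control cells only. Of these 6 regions, JUNB left the lists together with the departing factor at Rassf8, Agpat4 and Por and kept a peak in both conditions at the others. AP-1 letters were present at 22 of the 31 swap regions with JUNB (71.0%) and at 73 of the 488 without, a difference of 56.0 points (95% interval 38.1 to 69.3, Fisher's exact test, two-sided, p = 3.43e-11). This test was chosen after the sequences were read.

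The clearest difference in sequence concerned the STAT6-type site. TTC, 4 bases and GAA were found within the central 200 bp of 19 of 519 swap regions (3.66%) and of 301 of 1121 same-direction regions (26.9%), a difference of −23.2 points (95% interval −26.2 to −20.0, Fisher's exact test, two-sided, adjusted p = 3.69e-33). The site was frequent in the gained class alone. It was present at 291 of 751 both-gained regions (38.7%) and at 10 of 370 both-lost regions (2.70%), beside 7.63% of all merged regions and 7.91% of both-kept regions. Swap regions differed from the both-gained class by −35.1 points (95% interval −38.9 to −31.1, exact adjusted p = 9.59e-54), whereas the difference from the both-lost class was 0.958 points (95% interval −1.60 to 3.29, exact adjusted p = 0.616), both in tests chosen after the shares were seen. In each swap direction a factor was listed after IL-4 only, and the site stood at 3.49% of regions where this was IRF8 and at 3.92% where it was C/EBPα. The share of the site over all regions with IRF8 or C/EBPα after IL-4 only was not compared. The gap from both-gained regions was present at low and at high scores. Among regions with a lower score under 5 the site was found at 3.77% of swap regions (13 of 345) and at 25.3% of both-gained regions (87 of 344). At scores of 5 or more these shares were 3.45% (6 of 174) and 50.1% (204 of 407).

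**Figure D5:**
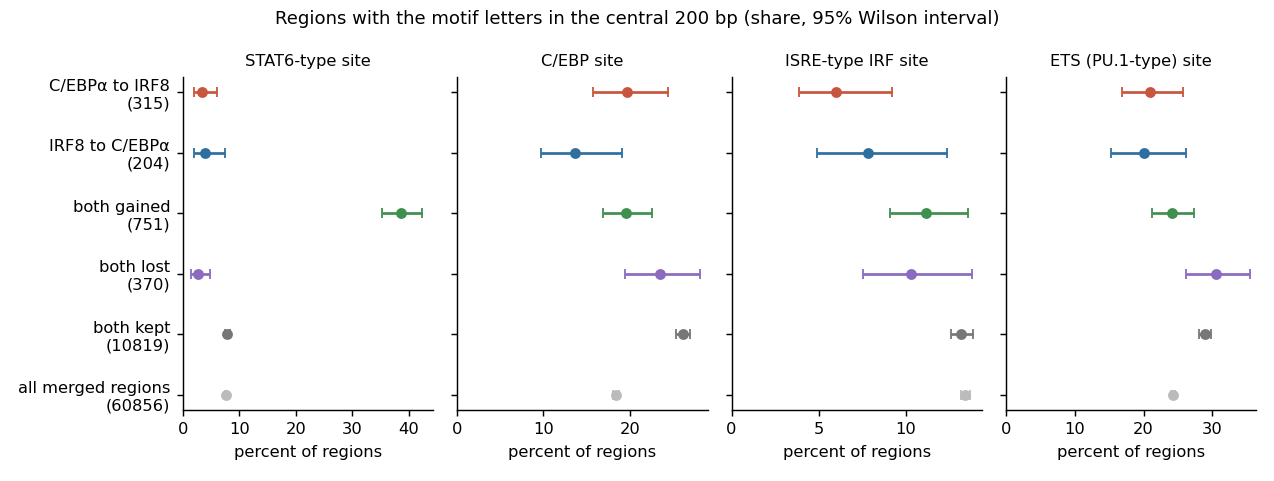
Share of regions in percent, with 95% Wilson intervals, whose central 200 bp held the letters of 4 motifs, by class of region with the number of regions in brackets. The STAT6-type site is found at 38.7% of both-gained regions and at 2.70% to 3.92% of the swap and both-lost classes.

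The highest-ranked swap regions that did hold the site are printed to show how it sits among its neighbours, 4 of each direction, with 8 bases on either side and TTC and GAA in capitals, plus strand of mm10. From C/EBPα to IRF8:
Nyx (chrX:13469761-13469786): acaagatgTTCccaaGAAgcaggcag
Eef2k (chr7:120850075-120850100): atcctggcTTCcagaGAAtagctgtt
Tmem14c (chr13:41019179-41019204): gttcctggTTCttccGAAcagcttcc
4930578N18Rik (chr16:76065789-76065814): acaaagagTTCttctGAAgttatttt
From IRF8 to C/EBPα:
Malat1 (chr19:5803094-5803119): gctgccatTTCatgcGAAacaagatg
Pes1 (chr11:3964846-3964871): ttttttttTTCtttaGAAaaggggaa
Phlpp2 (chr8:109872541-109872566): gcaagacaTTCctgaGAAgaaggaag
Glipr1 (chr10:111994236-111994261): cagctggaTTCcatgGAAgcattttt

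Among these, Malat1 stood 5th of the 204 by score, and its site lay in the promoter. Eef2k encodes the kinase of elongation factor 2, Pes1 a ribosome biogenesis protein, and Phlpp2 a phosphatase of AKT. No JUNB peak was found at any of the 19 regions with the site, but JUNB was at only 5.97% of all swap regions (31 of 519). With so few regions, its absence tells nothing about the site and JUNB. The C/EBPα scores of the 19 regions ran from 2.88 to 8.83, and the highest IRF8 score was 12.25, at Map2k6.

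The motifs of the exchanged factors themselves were found at a minority of swap regions. C/EBP letters were found at 19.7% of C/EBPα to IRF8 regions and at 13.7% of IRF8 to C/EBPα regions (exact adjusted p = 0.630), against 26.2% of both-kept regions and 18.4% of all regions. They stood at 26.0% of regions with C/EBPα in control cells only and at 22.7% of those with C/EBPα after IL-4 only. For IRF8 these shares were 14.3% and 11.2%. ISRE-type letters stood at 6.03% and 7.84% of the 2 directions and composite ETS-IRF letters at 9.52% and 5.88% (exact adjusted p = 0.977 and 0.70). Over all merged regions these shares were 13.4% and 16.5%. Against same-direction regions, C/EBP letters (17.3% against 20.9%) and composite letters (8.09% against 10.8%) did not pass adjustment (exact adjusted p = 0.144 for each). Compared with the same class, swap regions had fewer ISRE-type sites (6.74% against 10.9%, exact adjusted p = 0.0260) and fewer PU.1-type ETS sites (20.6% against 26.2%, exact adjusted p = 0.0398). Both calls were lost when the window was narrowed to 100 bp (exact adjusted p = 0.311 and 0.0546) and with scores of at least 5 (exact adjusted p = 0.520 and 0.957), and also with 50% overlap (exact adjusted p = 0.0626 and 0.123). The ISRE-type call was lost as well when peaks within 100 bp were merged (exact adjusted p = 0.0637), and the ETS call with 200 bp peaks (exact adjusted p = 0.0764) and with lists of equal length (exact adjusted p = 0.125). Neither C/EBP nor IRF-type letters were present at 214 of 315 and 153 of 204 swap windows (70.7% of both together), compared with 53.1% of both-kept windows and 62.6% of same-direction windows. AP-1 letters stood at 18.1% and 18.6%, beside 14.2% of all regions, and RUNX letters at 7.30% and 8.33%, beside 8.21%. PU.1-type ETS letters stood at 24.3% of all regions.

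The swap regions were spread over many genes. They were nearest to 499 different genes, 304 from C/EBPα to IRF8 and 202 from IRF8 to C/EBPα, and to a protein-coding gene at 272 and 182 regions. No gene had 3 or more swap regions and 20 had 2. At 7 genes the 2 regions went in opposite directions: Fat3, Filip1l, Gbe1, Herc3, Rad51b, Raph1 and Rreb1. The regions of a pair were 15.3 kb apart at Filip1l, 19.1 kb at Raph1 and 350.3 kb at Rad51b, with the other 4 between. Gbe1, the glycogen branching enzyme, had C/EBPα at 5.41 and IRF8 at 4.09 in its C/EBPα to IRF8 region. In its IRF8 to C/EBPα region it had IRF8 at 4.61 and C/EBPα at 17.9. At Rreb1, a zinc finger factor, the 4 scores lay between 3.85 and 4.94.

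Few swap regions, like few merged regions in general, lay next to listed macrophage genes. Over the 10 lists of macrophage genes, from 0 to 2 swap regions fell next to a list in each direction, which is at most 0.980% of a direction, and the same lists took from 0.174% to 0.677% of all merged regions. No swap region lay next to the IL-4 response genes named in the study, which took 0.304% of all regions. Alternative activation effectors had 1 region, from C/EBPα to IRF8 (0.317%), beside 0.194% of all merged regions. It was the promoter of Mrc1, the mannose receptor that marks alternatively activated macrophages. Its C/EBPα score was 5.38 in control cells and its IRF8 score was 19.15 after IL-4, the highest IRF8 score of its direction and 180th among 12650 regions with IRF8 after IL-4 only. A C/EBPα peak of the other condition lay 360.5 bp away and an IRF8 peak of the other condition 543.5 bp away. Both factors thus had a peak in each condition within 1 kb of this site.

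The list of inflammatory cytokines and chemokines had 1 region in each direction (0.317% and 0.490%), near the 0.449% that it took of all merged regions. At the promoter of Cxcl2, a neutrophil chemokine, C/EBPα was listed with 4.62 in control cells only and IRF8 with 6.45 after IL-4 only. The TSS distance was -226 bp. At a TSS distance of -3849 bp from Tnfaip3, which encodes the NF-κB inhibitor A20, IRF8 was listed with 6.76 in control cells only. C/EBPα was listed there with 10.11 after IL-4 only. The windows of these 3 regions are printed because they lie at known genes of polarization and inflammation, by the gene list and not by score:
Mrc1 (chr2:14229171-14229370): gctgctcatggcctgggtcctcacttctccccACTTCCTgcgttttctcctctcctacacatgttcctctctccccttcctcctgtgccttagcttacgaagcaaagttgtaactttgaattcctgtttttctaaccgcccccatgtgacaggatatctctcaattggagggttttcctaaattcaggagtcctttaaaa
Cxcl2 (chr5:90903511-90903710): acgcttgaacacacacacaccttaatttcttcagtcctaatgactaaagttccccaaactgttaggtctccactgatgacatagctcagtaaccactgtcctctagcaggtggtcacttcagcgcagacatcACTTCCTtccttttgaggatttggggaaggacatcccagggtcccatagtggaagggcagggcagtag
Tnfaip3 (chr10:19019160-19019359): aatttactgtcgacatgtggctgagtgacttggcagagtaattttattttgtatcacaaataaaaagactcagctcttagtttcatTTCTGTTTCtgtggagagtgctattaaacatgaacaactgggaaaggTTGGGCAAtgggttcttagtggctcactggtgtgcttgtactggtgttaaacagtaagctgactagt
Mrc1 and Cxcl2 each held an ETS site, at positions 33 and 133, and no C/EBP or IRF letters. Tnfaip3 held both kinds, an ISRE-type site at position 87 and a C/EBP site at position 134. These are the letters of the factor listed in control cells and of the factor listed after IL-4. Windows with a C/EBP site and an IRF-type site together were 2.86% and 1.96% of the 2 directions and 3.88% of all merged regions.

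The scores at the further list genes varied widely. From C/EBPα to IRF8, the scores were 4.84 and 15.91 in intron 1 of Stat5b, a STAT of cytokine signalling, and 3.81 and 5.63 in an intron of Jak1, a kinase of the IL-4 receptor. Mylip, the ubiquitin ligase that degrades the LDL receptor, had 7.01 and 4.99. Cd74, the invariant chain of MHC class II, had 5.95 and 12.95 at an intergenic site, and Itgav, the αV integrin, had 1 region upstream with 4.12 and 10.10 and 1 in an intron with 6.93 and 2.35. The promoter of Sfpi1, the gene of PU.1, carried 4.42 for C/EBPα and 2.70 for IRF8 together with JUNB at 2.87 in control cells, each below the lower quartile of its list. From IRF8 to C/EBPα, Csf1r, the receptor of M-CSF, had 4.8 and 8.69 at its 5′ UTR. Rxra, a partner of lipid-sensing nuclear receptors, had 7.59 and 4.75, Nod2, an intracellular sensor of bacterial peptidoglycan, 6.75 and 4.23, and Cd36, a scavenger receptor, 3.66 and 5.61. Jun, an AP-1 subunit, had 3.01 and 5.34 at a TSS distance of -218221 bp, where the 2 peaks shared only 27 bp, and the decoy receptor Il1r2 had 2.59 and 5.24.

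Genes that the study called IL-4-induced or IL-4-repressed by expression were not concentrated in either direction. IL-4-induced genes were nearest to 29 of 315 C/EBPα to IRF8 regions (9.21%) and to 21 of 204 IRF8 to C/EBPα regions (10.3%), beside 9.57% of all merged regions. For both-gained regions the share was 16.0%. IL-4-repressed genes were nearest to 27 (8.57%) and 14 (6.86%), beside 7.24% of all regions, 3.86% of both-gained and 8.11% of both-lost regions. Swap regions thus resembled the full set of regions in these shares, and the study chose both lists by expression. The nearest gene is the one HOMER assigned and need not be the gene that a region acts on.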

How the data were processed

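ChIP-seq of C/EBPα, IRF8 and JUNB was analysed in control and IL-4-treated macrophages, 1 sample each, grouped by the labels. According to the methods and the submitters' processing notes, reads were aligned to mm10 with BWA 0.7.10 and handled with SAMtools 0.1.19, peaks were called per sample with MACS2 2.0.10, blacklisted regions were removed and peaks were annotated with HOMER 4.2. The deposited score of each peak is taken as a −log10 p or q value from its range, since the files do not state which. The lowest scores of the lists, 1.30 to 1.76, are below what the paper's q-value cut would give for either, so the scale is uncertain. The authors' peak lists give no read counts, so the depth is unknown. The control library of the peak calling was not given in the sources used here.

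Peaks sharing at least 1 bp were merged, and a region took its annotation from its highest-scoring C/EBPα or IRF8 peak. Sequence was read from GRCm38 with pysam 0.24.0, and windows that overlap a UTR of the GENCODE annotation were not printed. Shares were compared by Fisher's exact test, two-sided (scipy 1.17.1), with Benjamini-Hochberg adjustment over 15 features per comparison and Newcombe intervals of differences. The merge gave the same regions as bedtools 2.31.1 and was tested on simulated data. Named genes were, per direction, the 10 regions with the highest lower score, the 3 with the highest JUNB score, all regions next to a listed gene and genes with regions of both directions. Members, lists and motifs were chosen with earlier results of these data known. Genes chosen after their values were seen were Arid5b, Sirt4, Atp10d, Cd37, Map2k6 and the genes of the printed STAT6-type sites. In 7 alternatives, and 1 added after seeing the data, each choice was changed in turn.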

Additional observations from a re-analysis of the deposited data

How the results depend on the processing

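No paired analysis was possible because each antibody and condition had 1 sample, and no replicate could be left out. The number of swap regions, from C/EBPα to IRF8 and from IRF8 to C/EBPα, was 266 and 173 with an overlap of at least 50% of the shorter peak, 225 and 174 with scores of at least 5, 246 and 253 with lists of equal length, 317 and 226 with 200 bp peaks, 324 and 200 with peaks within 100 bp merged, and 267 and 158 when the factor had no peak of the other condition within 1000 bp, a setting chosen after seeing the data. Requiring scores of at least 5 kept 97 and 77 of the members. No feature passed adjustment between the directions under any of these settings. Of 15 features, 6 separated swap from same-direction regions, and 3 did so at scores of at least 5. Of the 6, only the STAT6-type site and the intergenic share (−8.69 points, exact adjusted p = 0.0284) passed there. The other feature was the repeat share, which did not pass with all peaks (−2.61 points, exact adjusted p = 0.263) and passed at scores of at least 5 (−6.48 points, exact adjusted p = 0.0347). The promoter, TSS, ISRE-type and ETS calls were lost there, and the cause was not tested. The STAT6-type difference from both-gained regions ran from −37.5 to −25.6 points, and the AP-1 difference by JUNB from 43.2 to 59.8 points.

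Differences between the directions that changed sign were small, none passed adjustment, and the cause was not tested. At scores of at least 5 they were 1.18 points for JUNB (exact adjusted p = 0.821), −2.52 for C/EBP and −2.38 for ETS sites. With no peak within 1000 bp they were −0.287 for ETS, 0.0119 for RUNX and 1.59 for STAT6-type sites. ETS sites gave −2.19 with 200 bp peaks and −1.78 with lists of equal length, where JUNB after IL-4 gave −0.723 and JUNB in control cells 0.0675. The 100 bp window gave 0.205 for ISRE-type and 1.24 for STAT6-type sites. The 50% overlap gave 1.82 for STAT6-type sites and −0.0565 for JUNB after IL-4, and merging within 100 bp gave 0.395 for STAT6-type sites. Against same-direction regions, JUNB after IL-4 gave 0.535 and JUNB in control cells −0.0110 at scores of at least 5, and JUNB in control cells −0.176 with lists of equal length. Without read counts, no limit of detection can be given for an absent peak.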
